A study of Arabidopsis thaliana with 12 samples.

Results

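The 114 genes described here had at least 2 times the expression level in sfps-2 seedlings as in wild type seedlings, both after red light and in the dark, with at least 1 FPKM (fragments scaled to transcript length and to the mapped fragments of the library) in sfps-2 in both conditions. They were chosen from the 20420 genes that the authors tested in both comparisons of the genotypes, of 33557 genes listed. A total of 126 genes, 0.617% of those tested, met the thresholds. Of 18 loci that the selection leaves out by name, most of them seed storage and oil body genes, 12 met the thresholds, which gives the 114. The ratios between genotypes chose the members, so they are given as a description and with no test.

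The study sequenced ribosome-depleted total RNA of whole Arabidopsis thaliana seedlings in the Col-0 background, 4 days old and grown without light. The 4 groups, of 3 libraries each, were sfps-2 given 3 h of red light at 7 μmol m-2 s-1, sfps-2 kept in the dark, wild type given the same red light and wild type kept in the dark. The allele sfps-2 is described in the series text as a knockout of SPLICING FACTOR FOR PHYTOCHROME SIGNALING (SFPS, AT1G30480), a nuclear protein that acts in precursor mRNA splicing and in light signalling. All groups had the same chilling and the same white light pulse for germination. Nothing in the labels ties the replicates to separate cultures, so any spread between libraries may be technical.

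SFPS itself was at 1.93 FPKM in sfps-2 and 7.90 FPKM in wild type after red light, and at 1.83 FPKM in sfps-2 and 8.04 FPKM in wild type in the dark. The authors' expression tables give 1 FPKM value for each group, so no error between libraries stands beside an expression level. Total reads per library are unknown. Summed over 581 nuclear bins that the splicing sheets share, each library held between 288640 and 398115 junction reads. Read numbers per library exist for the members' listed splicing events only, and there 1 of the 3 dark sfps-2 libraries, replicate 2, held 338 of 340 spliced reads of IRT1 and 394 of 517 of PDF2.1. Ratios of spliced reads of these genes are given with and without it below, while their FPKM values include it. In whole seedlings, fewer cells of a type and less RNA per cell cannot be told apart.

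The members were sorted into kinds of genes after values were seen, and the share of all tested genes in each kind was not counted. Suberin and endodermal barrier genes and seed maturation genes, with 15 members each, are introduced here. Suberin is a polyester of fatty acids, glycerol and ferulate that is laid down on the walls of the root endodermis and periderm and of the seed coat, where it limits the passage of water and ions. Its monomers are made by fatty acid hydroxylases (CYP86), reductases (FAR), elongases (KCS) and glycerol acyltransferases (GPAT), are exported by ABCG transporters, and are controlled by MYB factors. Seed maturation genes encode storage proteins, late embryogenesis abundant (LEA) proteins and proteins of oil bodies. They are expressed in the ripening embryo under the transcription factors ABI3, FUS3 and LEC2 and are normally turned off as a seedling grows.

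The ratio of sfps-2 over wild type had a median of 3.79 after red light, with a range of 2.0 to 42.9, and a median of 3.298 in the dark, with a range of 2.01 to 17.1. It was larger after red light than in the dark for 72 of the 114 members. Most members were weakly expressed in wild type. After red light the median was 3.21 FPKM in sfps-2 and 0.917 FPKM in wild type, and in the dark it was 2.82 FPKM in sfps-2 and 0.866 FPKM in wild type. Wild type was below 1 FPKM for 64 members in each condition. At or above 10 FPKM there were 24 members in sfps-2 and 2 in wild type after red light, and 21 in sfps-2 and 3 in wild type in the dark. In the authors' deposited table the q-value of the genotype comparison was under 0.05 in both conditions for 87 members, in 1 condition for 9 and in neither for 18. Of those 18, 10 overlap another gene in the tables' coordinates, as do 16 of all 114 members. The members just inside the threshold were AT2G11891, with a smaller ratio of 2.0, AT1G27461 with 2.01 and AT1G43675 with 2.03. Those just outside were AT1G15415 with 1.9964, GRF8 with 1.98 and AT5G14330 with 1.98.

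**Figure D1:**
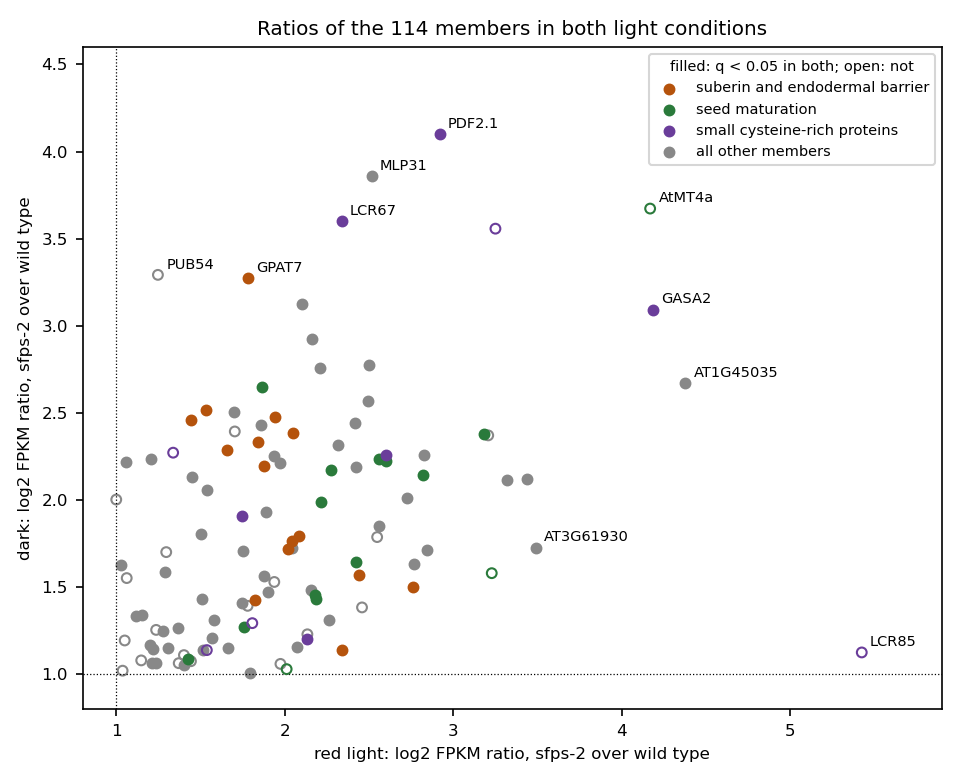
Log2 ratio of group FPKM, sfps-2 over wild type, after red light (horizontal axis) and in the dark (vertical axis) for each of the 114 members, coloured by kind of gene. Dotted lines mark the selection threshold of 2 times, filled points have an authors' q-value under 0.05 in both conditions, and LCR85 stands far to the right with a ratio of 42.9 after red light and 2.18 in the dark.

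Of the members, 12 were at 5 times or more in both conditions. The seed metallothionein gene AtMT4a, a metal-binding protein, was at 6.71 FPKM in sfps-2 and 0.373 FPKM in wild type after red light, and at 3.98 FPKM in sfps-2 and 0.312 FPKM in wild type in the dark. Its q-values in the authors' deposited table were 0.404 after red light and 0.605 in the dark, so its ratios were not called. The other 11 were AT2G33520, GASA2, PDF2.1, AT1G45035, MLP31, AT3G29644, AT4G11310, LAC5, PAP85, AT5G09672 and LCR67. Of these, AT2G33520 and AT5G09672 also had q-values of 0.05 or more in both conditions in the authors' deposited table, and each overlaps another gene. The highest mean levels in sfps-2 belonged to LCR67, PAP85, AT1G15010, LCR85, ABCC8 and HOL2.

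The suberin and endodermal barrier genes were 15 members, and all 15 had a q-value under 0.05 in both conditions in the authors' deposited table. Their median ratio was 3.85 after red light, with a range of 2.72 to 6.78, and 4.58 in the dark, with a range of 2.204 to 9.67. Together they cover most steps of suberin production. Among the hydroxylases, CYP86A1, which makes the omega-hydroxy acids of root suberin, was at 2.33 FPKM in sfps-2 and 0.657 FPKM in wild type after red light, and at 1.54 FPKM in sfps-2 and 0.571 FPKM in wild type in the dark. CYP86B1, which acts on very long chains, was at 1.89 FPKM in sfps-2 and 0.456 FPKM in wild type after red light, and at 1.28 FPKM in sfps-2 and 0.246 FPKM in wild type in the dark. Both hydroxylases were thus below 1 FPKM in wild type.

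The reductase genes FAR4 and FAR5, which make the primary alcohols of suberin, lie next to each other on chromosome 3, at 16124021 to 16127954 and 16138017 to 16141546, both on the plus strand. FAR4 was at 4.93 FPKM in sfps-2 and 0.975 FPKM in wild type after red light, and at 2.18 FPKM in sfps-2 and 0.987 FPKM in wild type in the dark. FAR5 was at 1.47 FPKM in sfps-2 and 0.510 FPKM in wild type after red light, and at 1.19 FPKM in sfps-2 and 0.208 FPKM in wild type in the dark. FAR4 had the larger ratio after red light (5.05, against 2.204 in the dark) and FAR5 the larger ratio in the dark (5.71, against 2.89 after red light).

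The acyltransferases GPAT5 and GPAT7 transfer acyl groups to glycerol. GPAT5 was at 3.06 FPKM in sfps-2 and 0.971 FPKM in wild type after red light, and at 1.37 FPKM in sfps-2 and 0.280 FPKM in wild type in the dark. GPAT7 was at 1.56 FPKM in sfps-2 and 0.453 FPKM in wild type after red light, and at 1.13 FPKM in sfps-2 and 0.117 FPKM in wild type in the dark, where its ratio of 9.67 was the largest of the 15. The exporter gene ABCG6 was at 6.78 FPKM in sfps-2 and 1.76 FPKM in wild type after red light, and at 3.47 FPKM in sfps-2 and 0.625 FPKM in wild type in the dark. The remaining members of this kind were ABCG16, the transcription factor gene MYB93 of the root endodermis, the GDSL esterase genes AT1G74460, AT2G23540 and AT3G50400, and the CASP-like membrane protein genes AT3G06390, AT4G20390 and AT5G44550. Their ratios ran from 2.72 to 6.78 after red light and from 2.83 to 5.51 in the dark.

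**Figure D2:**
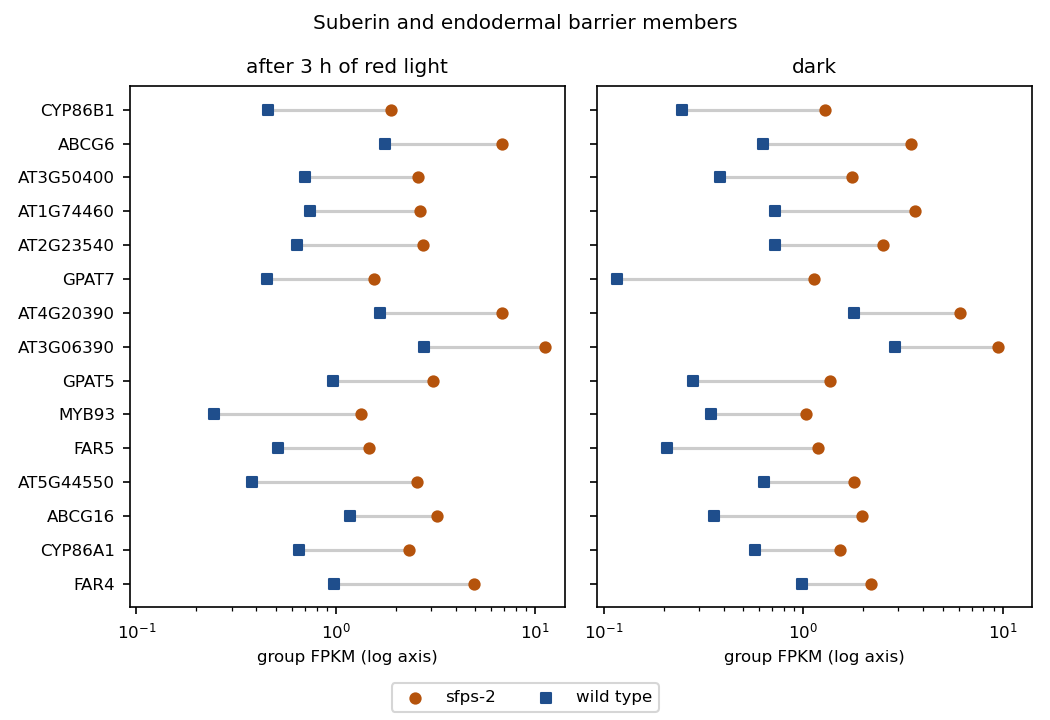
Group FPKM (log axis) of the 15 suberin and endodermal barrier members after red light and in the dark, with sfps-2 as circles and wild type as squares joined by a line. Every circle lies to the right of its square, as the selection requires, and the widest gap in the dark is that of GPAT7.

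A list of 25 genes of suberin synthesis, export and control, drawn up after the values were seen, holds 10 of these members. In sfps-2, calls of higher numbered 17 of 25 tested genes after red light, with 0 of lower, and 13 of 24 in the dark, with 1 of lower. A call here needs an authors' q-value under 0.05 and a change of at least 1.5 times. That rule gives 3.28% of all tested genes as higher and 3.23% as lower for red light, and 5.22% as higher and 1.99% as lower for the dark. The selection fixes the direction of the members, so the list is also given without them. Of the list genes that are no members, 7 of 15 were called higher after red light and 3 of 14 in the dark, and their median log2 change was 0.30 after red light and 0.45 in the dark, against -0.02 and 0.04 over all tested genes. The non-members called higher were FACT, ABCG2, ABCG20, MYB41, MYB9, MYB39 and GELP96 after red light, and ABCG20, MYB9 and MYB39 in the dark. These calls lie near the floor. In sfps-2 the dark levels of ABCG20, MYB9 and MYB39 were 0.559, 0.990 and 0.649 FPKM, and GELP96 was at 0.390 FPKM after red light. ABCG2, ABCG20, MYB41, MYB9 and MYB39 exceeded 2 times in both conditions and missed membership only by the floor of 1 FPKM. The 1 call of lower was MYB92 in the dark, at 7.51 FPKM in sfps-2 and 12.8 FPKM in wild type.

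The suberin genes with high levels in both genotypes were not called. FAR1 was at 56.2 FPKM in sfps-2 and 66.0 FPKM in wild type after red light, and at 218 FPKM in sfps-2 and 219 FPKM in wild type in the dark. KCS20, an elongase gene, was at 134 FPKM in sfps-2 and 145 FPKM in wild type after red light. ASFT, which feruloylates suberin monomers, was at 49.6 FPKM in sfps-2 and 44.5 FPKM in wild type after red light. Genes of the Casparian strip, the lignin barrier of the endodermis, were not higher in sfps-2 where they are given here, and the 3 named were picked after their values were seen. MYB36, a regulator of that barrier, was at 28.05 FPKM in sfps-2 and 30.1 FPKM in wild type after red light, and at 26.3 FPKM in sfps-2 and 33.5 FPKM in wild type in the dark. ESB1 was at 43.5 FPKM in sfps-2 and 52.5 FPKM in wild type after red light, and at 53.9 FPKM in sfps-2 and 59.2 FPKM in wild type in the dark. PER64, a peroxidase gene, was at 86.2 FPKM in sfps-2 and 111 FPKM in wild type after red light, and at 98.5 FPKM in sfps-2 and 126 FPKM in wild type in the dark. None of these 3 was called in either condition, and their part in the levels of the suberin members was not tested.

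The 250 bases before the RefSeq start of GPAT5 are shown since its level was called higher by light in both genotypes (below) and the window holds the letters ACGTG, the core that bZIP factors of the abscisic acid response bind (ABRE-like), at 2 places, -45 and -14 from the start. The letters in capitals are those matches. The region is chr3:3595444-3595693 on the plus strand of TAIR10.1.
GPAT5: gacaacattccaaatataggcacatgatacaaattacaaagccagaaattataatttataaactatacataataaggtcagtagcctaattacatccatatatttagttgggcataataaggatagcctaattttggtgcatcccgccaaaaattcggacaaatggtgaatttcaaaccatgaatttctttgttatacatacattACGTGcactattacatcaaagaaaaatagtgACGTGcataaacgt

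The seed maturation genes were 15 members, of which 12 had a q-value under 0.05 in both conditions in the authors' deposited table. Their median ratio was 4.83 after red light, with a range of 2.69 to 17.98, and 3.96 in the dark, with a range of 2.04 to 12.8. PAP85, a storage protein of the vicilin type, was at 55.4 FPKM in sfps-2 and 6.10 FPKM in wild type after red light, and at 40.4 FPKM in sfps-2 and 7.77 FPKM in wild type in the dark. The LEA protein gene M10 was at 16.4 FPKM in sfps-2 and 2.71 FPKM in wild type after red light, and at 19.4 FPKM in sfps-2 and 4.14 FPKM in wild type in the dark. M17, a LEA gene close to M10 on chromosome 2, was at 7.97 FPKM in sfps-2 and 1.75 FPKM in wild type after red light, and at 6.13 FPKM in sfps-2 and 2.27 FPKM in wild type in the dark. Of these 3, PAP85 had the largest ratios.

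The seed maturation gene SMP1 was at 18.7 FPKM in sfps-2 and 3.16 FPKM in wild type after red light, and at 13.0 FPKM in sfps-2 and 2.76 FPKM in wild type in the dark. ATECP31, a LEA gene, was at 10.4 FPKM in sfps-2 and 1.94 FPKM in wild type after red light, and at 7.25 FPKM in sfps-2 and 2.31 FPKM in wild type in the dark. The oil body proteins were represented by ATS1 and ATPXG2, calcium-binding caleosins with peroxygenase activity. ATS1 was at 2.76 FPKM in sfps-2 and 0.760 FPKM in wild type after red light, and at 2.57 FPKM in sfps-2 and 0.411 FPKM in wild type in the dark. ATPXG2 was at 3.35 FPKM in sfps-2 and 0.473 FPKM in wild type after red light, and at 1.78 FPKM in sfps-2 and 0.405 FPKM in wild type in the dark. HSD3, a hydroxysteroid dehydrogenase gene of the oil body enzyme family, had the highest wild type levels of the 15, with 18.1 FPKM in sfps-2 and 6.72 FPKM in wild type after red light, and 21.0 FPKM in sfps-2 and 9.89 FPKM in wild type in the dark.

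**Figure D3:**
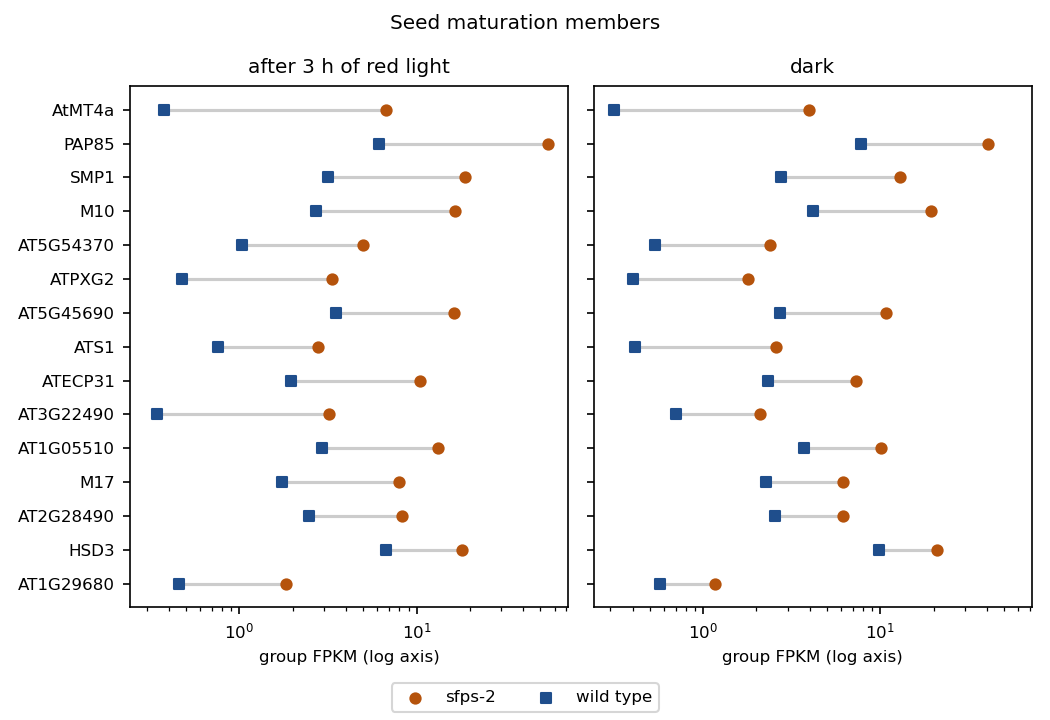
Group FPKM (log axis) of the 15 seed maturation members after red light and in the dark, with sfps-2 as circles and wild type as squares joined by a line. PAP85 has the highest level in sfps-2, at 55.4 FPKM after red light and 40.4 FPKM in the dark, and AtMT4a the largest ratio.

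A list of 19 genes of seed maturation and reserve use beyond the loci left out holds 4 members, M17, M10, ATS1 and ATPXG2. In sfps-2, calls of higher numbered 8 of its 17 tested genes after red light and 6 of 16 in the dark, with 0 of lower in each. The selection fixes the direction of the 4 members. Without them, 4 of 13 genes were called higher after red light and 2 of 12 in the dark, with a median log2 change of 0.36 after red light and 0.14 in the dark. ABI3, a master regulator of maturation, was at 2.92 FPKM in sfps-2 and 1.87 FPKM in wild type after red light, and at 2.61 FPKM in sfps-2 and 1.75 FPKM in wild type in the dark. Of FUS3, LEC1 and LEC2, the highest value was 0.344 FPKM, for FUS3 in sfps-2 after red light. ICL, isocitrate lyase of the glyoxylate cycle that uses seed lipid, was not called, at 263 FPKM in sfps-2 and 393 FPKM in wild type after red light. The 11 marker genes of seed and embryo are all among the loci left out, and their summed level was 775 FPKM in sfps-2 and 155 FPKM in wild type after red light, and 612 FPKM in sfps-2 and 95.8 FPKM in wild type in the dark, with none at 0. Their part in the levels of the members was not tested.

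The 250 bases before the starts of PAP85, M10 and SMP1 are shown for 3 members of this kind with 4.67 times or more in both conditions. AtMT4a also met this, with larger ratios, and is not shown. Its q-values in the authors' deposited table were 0.404 after red light and 0.605 in the dark. In PAP85 the palindromic CATGCATG, 31 bases before the start, holds the core CATGCA of the RY element that factors of the ABI3, FUS3 and LEC2 family bind, on both strands. In M10 a G-box, CACGTG, begins at -207 and holds ACGTG on both strands, and in SMP1 ACGTG begins at -37. Capitals also mark TTGAC, the W-box core that WRKY factors bind, which lies at -24 in PAP85, -71 in M10 and -33 in SMP1. The regions are chr3:8013942-8014191 on the minus strand for PAP85, chr2:17209447-17209696 on the plus strand for M10 and chr3:4136203-4136452 on the plus strand for SMP1.
PAP85: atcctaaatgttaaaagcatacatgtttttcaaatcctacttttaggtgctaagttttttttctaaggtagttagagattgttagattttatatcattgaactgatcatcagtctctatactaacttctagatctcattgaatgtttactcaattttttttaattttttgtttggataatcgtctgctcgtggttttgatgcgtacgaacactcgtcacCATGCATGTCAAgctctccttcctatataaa
M10: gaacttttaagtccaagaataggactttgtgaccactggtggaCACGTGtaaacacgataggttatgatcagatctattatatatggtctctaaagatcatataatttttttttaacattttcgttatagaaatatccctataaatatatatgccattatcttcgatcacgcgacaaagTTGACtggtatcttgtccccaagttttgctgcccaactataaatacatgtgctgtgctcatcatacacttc
SMP1: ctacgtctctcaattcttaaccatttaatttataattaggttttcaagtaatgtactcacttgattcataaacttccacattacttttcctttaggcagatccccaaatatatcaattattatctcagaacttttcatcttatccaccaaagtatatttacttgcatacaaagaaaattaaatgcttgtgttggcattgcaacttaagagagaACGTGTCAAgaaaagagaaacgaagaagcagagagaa

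Small cysteine-rich proteins, most of them of secreted families, made up 11 members, 6 of them with a q-value under 0.05 in both conditions in the authors' deposited table. LCR67, a plant defensin, an antifungal peptide, had the highest level of all members, with 239 FPKM in sfps-2 and 47.2 FPKM in wild type after red light, and 163 FPKM in sfps-2 and 13.4 FPKM in wild type in the dark. PDF2.1, another defensin, was at 23.8 FPKM in sfps-2 and 3.14 FPKM in wild type after red light, and at 15.5 FPKM in sfps-2 and 0.903 FPKM in wild type in the dark. Of its spliced reads in the sfps-2 dark libraries, 394 of 517 came from replicate 2. LCR85 had the most uneven pair of ratios of the set, with 62.7 FPKM in sfps-2 and 1.46 FPKM in wild type after red light, and 4.75 FPKM in sfps-2 and 2.18 FPKM in wild type in the dark. Its q-values in the authors' deposited table were 0.0226 after red light and 0.384 in the dark, and no read number per library was analysed here for it.

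The GASA peptide genes GASA2 and GASA3, whose family responds to gibberellin, are neighbours on chromosome 4, 1157 bases apart and both on the minus strand. GASA2 was at 6.68 FPKM in sfps-2 and 0.367 FPKM in wild type after red light, and at 10.2 FPKM in sfps-2 and 1.195 FPKM in wild type in the dark. GASA3 was at 10.96 FPKM in sfps-2 and 2.50 FPKM in wild type after red light, and at 7.54 FPKM in sfps-2 and 3.28 FPKM in wild type in the dark. Thionin gene AT2G15010 had a ratio of 6.06 after red light and 4.79 in the dark.

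Cell wall and cytoskeleton genes were 9 members, 7 with a q-value under 0.05 in both conditions in the authors' deposited table. The proline-rich wall protein genes PELPK1 and PELPK2 are neighbours on chromosome 5, 877 bases apart. PELPK1 was at 20.4 FPKM in sfps-2 and 4.42 FPKM in wild type after red light, and at 24.3 FPKM in sfps-2 and 3.60 FPKM in wild type in the dark. XTH25, a xyloglucan endotransglucosylase that remodels hemicellulose, was at 6.30 FPKM in sfps-2 and 0.951 FPKM in wild type after red light, and at 5.25 FPKM in sfps-2 and 1.303 FPKM in wild type in the dark. The formin gene AFH14, whose protein binds actin filaments and microtubules, was at 17 FPKM in sfps-2 and 5.23 FPKM in wild type after red light, and at 30.9 FPKM in sfps-2 and 5.43 FPKM in wild type in the dark. AFH14 overlaps AT1G31800 and starts 609 kb from the start of SFPS on chromosome 1.

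Oxidative wall enzymes were 5 members, the laccases LAC5 and LAC13 and the class III peroxidases AT1G68850, AT2G35380 and AT2G38380, and all 5 had a q-value under 0.05 in both conditions in the authors' deposited table. AT2G38380 was at 17.635 FPKM in sfps-2 and 2.59 FPKM in wild type after red light, and at 13.1 FPKM in sfps-2 and 4.22 FPKM in wild type in the dark. LAC5 was close to 5 times in both conditions, with 1.03 FPKM in sfps-2 and 0.192 FPKM in wild type after red light.

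Transporters outside the suberin genes were 7 members. ABCC8, an ABC transporter of the multidrug resistance protein family, was at 35.4 FPKM in sfps-2 and 14.6 FPKM in wild type after red light, and at 21.98 FPKM in sfps-2 and 9.24 FPKM in wild type in the dark. IRT1, the main iron importer of the root epidermis, and IRT2 are neighbours on chromosome 4, 2609 bases apart. IRT1 was at 5.24 FPKM in sfps-2 and 1.61 FPKM in wild type after red light, with a q-value of 0.427 in the authors' deposited table, and at 19.3 FPKM in sfps-2 and 3.67 FPKM in wild type in the dark, with a q-value of 0.00116 in the same table. The dark value rests on 1 library (below). IRT2 was at 2.001 FPKM in sfps-2 and 0.476 FPKM in wild type after red light, and at 1.08 FPKM in sfps-2 and 0.484 FPKM in wild type in the dark. Of 10 tested genes of a list of iron uptake, 0 were called after red light in either direction, and in the dark 3 were called higher (FRO2, F6H1 and IRT1) and 1 lower (BHLH38). IRT1 is the only member on it.

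Regulators and signalling genes were 13 members. PISTILLATA (PI), a MADS transcription factor that specifies petals and stamens, was at 5.36 FPKM in sfps-2 and 0.910 FPKM in wild type after red light, and at 8.44 FPKM in sfps-2 and 2.34 FPKM in wild type in the dark. PBS3, an enzyme of salicylic acid synthesis, was at 2.64 FPKM in sfps-2 and 0.590 FPKM in wild type after red light, and at 1.68 FPKM in sfps-2 and 0.221 FPKM in wild type in the dark. GA20OX2, which makes precursors of active gibberellin, was at 2.96 FPKM in sfps-2 and 1.12 FPKM in wild type after red light, and at 2.94 FPKM in sfps-2 and 1.42 FPKM in wild type in the dark. PUB54, a U-box protein, had a ratio of 9.80 in the dark but 2.37 after red light, where its q-value in the authors' deposited table was 0.0558. Others in this kind were WRKY42, CRK40 and the SAUR gene AT3G12955. AT3G12955 lies head to head with SMP1 on chromosome 3, with 344 bases between them, and was at 2.44 FPKM in sfps-2 and 0.857 FPKM in wild type after red light.

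The remaining members were 21 other enzymes and named proteins, 11 proteins with no known role and 7 loci that are pseudogenes, noncoding or unmatched in RefSeq. MLP31, a protein of the major latex protein family, was at 3.46 FPKM in sfps-2 and 0.604 FPKM in wild type after red light, and at 2.69 FPKM in sfps-2 and 0.185 FPKM in wild type in the dark. HOL2, a methyltransferase, was at 20.8 FPKM in sfps-2 and 6.57 FPKM in wild type after red light, and at 27.2 FPKM in sfps-2 and 12.2 FPKM in wild type in the dark. The long noncoding RNA AT3G29644, which overlaps AT3G29642, was at 8.96 FPKM in sfps-2 and 1.58 FPKM in wild type after red light, and at 12.6 FPKM in sfps-2 and 1.85 FPKM in wild type in the dark. Pseudogene AT1G45035 had a ratio of 20.8 after red light and 6.37 in the dark, with 0.297 FPKM in wild type after red light. Of all 114 members, 107 are protein coding in RefSeq.

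Markers of some other cell types were read beside these levels. All 5 root hair markers were called higher in sfps-2 after red light, with a sum of 13.8 FPKM in sfps-2 and 4.68 FPKM in wild type, and in the dark 0 of 5 were called by the authors' Cuffdiff test, 1 of them at an unadjusted p under 0.05, with a sum of 5.78 FPKM in both genotypes. None of them is a member or at 0, and their part in the levels of the members was not tested. The epidermis and phloem companion cell markers had 0 calls in either condition by the same test, with 0 of 2 and 1 of 2 after red light and 0 of 2 and 2 of 2 in the dark at an unadjusted p under 0.05. Of 5 genes that mark the light state, 0 were called after red light, with 1 at an unadjusted p under 0.05, and in the dark 2 were called higher and 1 lower in sfps-2. The other lists drawn up for these data, of abscisic acid and cold, heat shock, oxidative stress, camalexin, auxin, proline-rich, phosphate and flavonoid genes, hold 0 members.

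The light response was compared next, since the selection did not use the change with light within a genotype. The same libraries enter both contrasts, so a member with a larger genotype ratio in the dark than after red light also has a smaller log2 light change in sfps-2 than in wild type. Of the 114 members tested in sfps-2, 19 (16.7%) were called higher after red light, against 12.4% of all tested genes, and 8 (7.02%) lower, against 8.97%. Of the 111 tested in wild type, 20 (18.02%) were called higher, against 14.9% of all tested genes, and 6 (5.41%) lower, against 5.85%. The members' shares lie near those of all genes. The median log2 change of the members was 0.38 in sfps-2 and -0.02 in wild type, against -0.01 in sfps-2 and 0.01 in wild type over all tested genes.

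By calls, 10 members were higher after red light in both genotypes, 9 were called higher in sfps-2 only and 10 in wild type only, and 2 were lower in both, 6 in sfps-2 only and 4 in wild type only. The difference in light response between the genotypes was not tested, since the tables hold no value per library. Higher in both were GPAT5, ABCG6, ABCG16, ABCC8, AT1G68570, AT5G13900, AT5G54370, AT4G36610, AT1G78720 and scpl28. AT1G68570, a transporter of the nitrate and peptide family that overlaps AT1G68568, was at 14.6 FPKM after red light and 3.42 FPKM in the dark in sfps-2, and at 4.77 FPKM after red light and 1.32 FPKM in the dark in wild type. AT5G13900, of the lipid transfer protein family, was at 7.20 FPKM after red light and 1.54 FPKM in the dark in sfps-2, and at 2.01 FPKM after red light and 0.599 FPKM in the dark in wild type.

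The largest call of higher in sfps-2 was that of LCR85, with a log2 change of 3.72 in sfps-2 and -0.52 in wild type, where it was not called. The next were AT5G13900, AT1G68570 and AT4G12735, a protein with no known role, whose log2 change was 1.76 in sfps-2 and 0.57 in wild type, where it was not called. In wild type the 4 largest were PUB54 with 2.02, GPAT7 with 1.98, AT1G68570 with 1.85 and GPAT5 with 1.83, and the log2 changes of these 4 in sfps-2 were -0.00, 0.48, 2.096 and 1.17. The largest falls after red light in sfps-2 were those of IRT1 (-1.87, with a dark level that rests on 1 library), AT3G60650 (-1.70), AT2G36770 (-1.38) and the pseudogene AT3G32925 (-1.12). In wild type they were AT1G45035 (-1.35), PI (-1.35), HOL2 (-0.88) and AT1G15010 (-0.68), of which PI and AT1G15010 were also called lower in sfps-2, by -0.65 and -0.98.

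Light calls were then counted by kind of gene. Over all tested genes, 12.4% were called higher and 8.97% lower in sfps-2, and 14.9% higher and 5.85% lower in wild type. Among the 15 suberin and endodermal barrier genes, 4 were called higher after red light in sfps-2 (FAR4, GPAT5, ABCG6 and ABCG16). Wild type had 6 such calls (GPAT7, GPAT5, ABCG16, ABCG6, FAR5 and CYP86B1), and 0 were called lower in either genotype. In wild type GPAT7, GPAT5, FAR5 and CYP86B1 were below 1 FPKM both after red light and in the dark. Among the 15 seed maturation genes, 3 were called higher in sfps-2 (AT5G54370, ATPXG2 and AT5G45690) and 1 in wild type (AT5G54370), and 0 lower in either. Their median log2 change was 0.53 in sfps-2 and -0.24 in wild type. FAR4 was at 5.02 FPKM after red light and 2.204 FPKM in the dark in sfps-2, while its log2 change in wild type was -0.01.

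**Figure D4:**
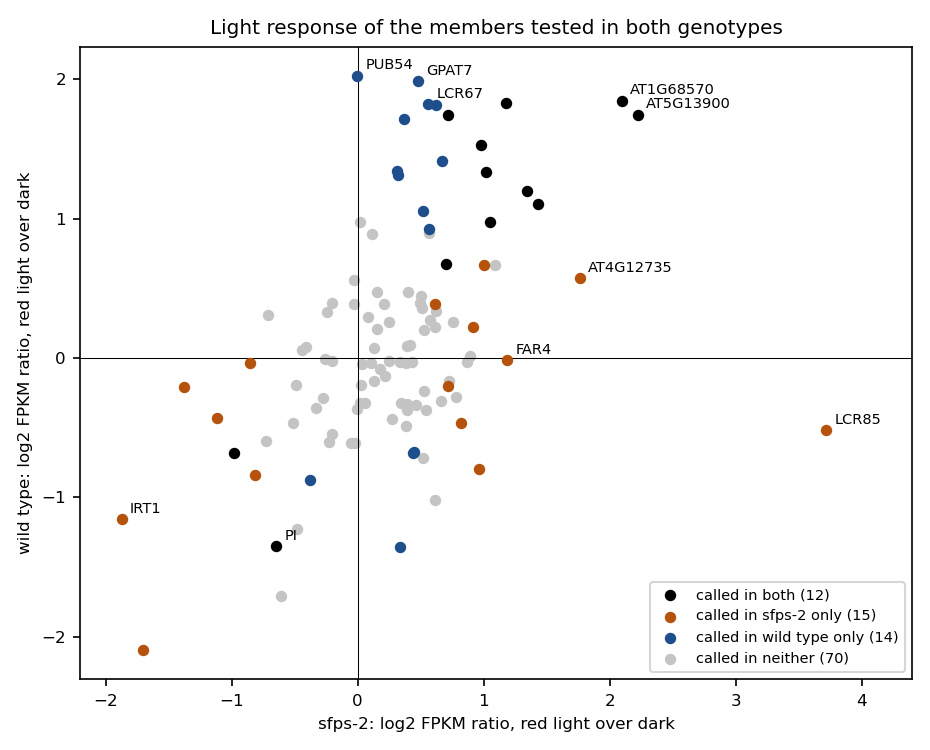
Log2 ratio of group FPKM, red light over dark, in sfps-2 (horizontal axis) and in wild type (vertical axis) for the 111 members tested in both genotypes. Points are coloured by the genotype in which a change was called, with 12 called in both, 15 in sfps-2 only, 14 in wild type only and 70 in neither, and LCR85 lies far to the right with 3.72 in sfps-2.

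Splicing was read from the authors' list of events that differ between genotypes at a false discovery rate of 0.05 with a change of 3 points or more. Such an event was listed for 6 of the 114 members (5.26%) after red light, against 3.92% of the genes tested for expression, and for 3 (2.63%) in the dark, against 3.75%. In either condition it was 9 members with 10 events, all of them introns. A retention share is the number of reads that cross the 2 borders of an intron over that number plus 2 times the spliced reads. It was higher in sfps-2 for 4 of the 7 introns after red light and for 1 of the 3 in the dark. Over all listed introns it was higher in sfps-2 for 557 of 788 after red light (70.7%) and for 478 of 743 in the dark (64.3%). The events were listed for a difference in these libraries, so the tests on them below describe the spread between libraries and add no independent support.

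The 5 introns with a higher share in sfps-2 were 80 to 136 bases long, and the 5 with a lower share were 220 to 1105 bases long. Over all listed introns the median length was 172 bases for those higher and 163 bases for those lower after red light, and 204.5 bases for those higher and 143 bases for those lower in the dark. Shown here are 3 of the short introns and, for contrast, intron 1 of PDF2.1, which was spliced more fully in sfps-2. The capitals mark the first 2 and last 2 bases, GT and AG in each, the marks of introns removed by the major spliceosome. They lie at chr4:10708320-10708417 on the plus strand for IRT1, chr4:17265848-17265927 on the minus strand for AT4G36610, chr1:27556831-27556918 on the minus strand for scpl5 and chr2:538383-538672 on the plus strand for PDF2.1.
IRT1 intron 2: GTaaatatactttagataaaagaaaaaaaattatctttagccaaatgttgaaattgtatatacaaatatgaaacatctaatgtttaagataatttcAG
AT4G36610 intron 2: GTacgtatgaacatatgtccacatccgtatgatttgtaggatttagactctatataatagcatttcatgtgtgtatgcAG
scpl5 intron 3: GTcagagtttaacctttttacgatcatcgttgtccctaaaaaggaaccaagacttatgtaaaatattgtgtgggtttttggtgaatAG
PDF2.1 intron 1: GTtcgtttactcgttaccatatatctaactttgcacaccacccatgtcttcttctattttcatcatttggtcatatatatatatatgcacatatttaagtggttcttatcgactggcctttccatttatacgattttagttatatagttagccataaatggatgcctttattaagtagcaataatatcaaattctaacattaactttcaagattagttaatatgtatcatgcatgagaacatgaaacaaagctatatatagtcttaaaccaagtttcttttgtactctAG

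AT4G36610, a hydrolase gene, had retention shares of 10.3%, 8.47% and 2.53% at intron 2 in the sfps-2 red light libraries, against 0 border reads beside 41 spliced reads over the 3 wild type libraries, which allows up to 3.66%. Its log2 odds of retention differed by 1.02 ± 0.56 (SE), with an adjusted p of 0.118 in limma. It became 1.64, with an adjusted p of 0.0165, without sfps-2 replicate 3, and 0.26 with 1 added to each read count. At intron 3 of scpl5, a serine carboxypeptidase-like gene, the shares were 13.0%, 8.59% and 9.33% in sfps-2, against 6.25%, 0% and 15.2% in wild type after red light. These overlap, and the adjusted p in limma was 0.438. At intron 2 of scpl5 they were 14.5%, 8.78% and 12.4% in sfps-2, against 0%, 4.17% and 19.3% in wild type, with an adjusted p of 0.279 in limma. At intron 2 of AT3G09405, a pectin acetylesterase gene that overlaps AT3G09410, the shares were 7.69%, 11.9% and 13.7% in sfps-2, against 0%, 0% and 3.23% in wild type after red light. The groups do not overlap, and the log2 odds differed by 1.55 ± 0.34 (SE), with an adjusted p of 0.00725 in limma.

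A further 4 introns were spliced more fully in sfps-2 without overlap between the groups. The events were listed for a difference in these libraries, and the share of all listed introns without overlap was not counted. At intron 1 of AT3G06690, a putative acyl-CoA oxidase gene, the shares were 14.0%, 13.5% and 17.2% in sfps-2, against 23.3%, 32.0% and 28.6% in wild type after red light, and the log2 odds differed by -1.16 ± 0.24 (SE), with an adjusted p of 0.00598 in limma. For AT1G33080, a MATE efflux protein gene, they were 4.62%, 3.23% and 2.56% in sfps-2, against 50%, 14.3% and 30% in wild type, with a difference of -3.05 ± 0.55 (SE) and an adjusted p of 0.00437 in limma. For PDF2.1 they were 0%, 0.505% and 0% in sfps-2, against 18.18%, 3.57% and 42.9% in wild type in the dark, with a difference of -4.92 ± 0.89 (SE) and an adjusted p of 0.00502 in limma. At intron 1 of PI they were 18.4%, 20% and 15.2% in sfps-2, against 27.3%, 35.9% and 23.1% in wild type in the dark, with a difference of -0.91 ± 0.27 (SE) and an adjusted p of 0.0212 in limma, which became 0.0609 without sfps-2 dark replicate 3. The wild type shares of PDF2.1 and AT1G33080 rest on 2 to 27 and 1 to 15 spliced reads per library. For XTH25 intron 1 the shares were 6.75%, 10.9% and 21.4% in sfps-2, against 33.3%, 36.8% and 0% in wild type after red light, which overlap, and the adjusted p in limma was 0.329.

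In the authors' list, light changed retention in sfps-2 at introns of 3 members, IRT1, PI and AT1G68570. In wild type 0 members had a listed event for light. The share of all tested genes with such an event was not counted, so these counts do not set the genotypes apart. The IRT1 event rests on sfps-2 dark libraries with 2, 338 and 0 spliced reads. At intron 1 of AT1G68570 the retention share was 7.36% ± 1.41 after red light and 23.2% ± 3.62 in the dark (SD, n = 3 each). At intron 1 of PI it was 8.49% ± 1.59 after red light and 17.9% ± 2.44 in the dark (SD, n = 3 each). Introns 3 and 4 of PI were listed as well, with 5.84% ± 2.55 after red light and 14.9% ± 8.40 in the dark at intron 3 (SD, n = 3 each).

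The spliced reads at these introns also show the members' levels library by library, although the introns were listed for splicing and the genes chosen for expression. The genes were chosen for higher levels in these same libraries, so the selection favours a separation. Its share over all listed introns was not counted. In 9 of 10 introns every sfps-2 library had more spliced reads than every wild type library. PI intron 1 had 100, 52 and 92 such reads in the sfps-2 dark libraries, against 24, 25 and 15 in wild type. AT3G06690 intron 1 had 95, 99 and 123 in the sfps-2 red light libraries, against 23, 17 and 35 in wild type. At scpl5 intron 2 the sfps-2 red light libraries had 139, 213 and 155, against 28, 23 and 23 in wild type. Scaled by the junction reads per library, the ratios of means of these introns were 4.37, 4.61 and 7.22.

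PDF2.1 had 66, 394 and 57 spliced reads in the sfps-2 dark libraries, against 9, 27 and 2 in wild type, a scaled ratio of 14.2, which became 5.70 without sfps-2 replicate 2 and 35.0 without wild type replicate 2. IRT1 was the exception to the separation. At its intron 2 the sfps-2 dark libraries had 2, 338 and 0, against 53, 8 and 12 in wild type. A single sfps-2 library thus lay above all wild type libraries and the other 2 below them. The scaled ratio was 4.96 with all libraries and 0.0483 without sfps-2 replicate 2, so the dark level of IRT1 in sfps-2 is that of 1 library. In the same 3 libraries the border reads at this intron were 6, 17 and 0, which gives shares of 60.0% and 2.45% in the first and second. After red light the sfps-2 libraries held 14, 68 and 11 spliced reads and 0 border reads.

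**Figure D5:**
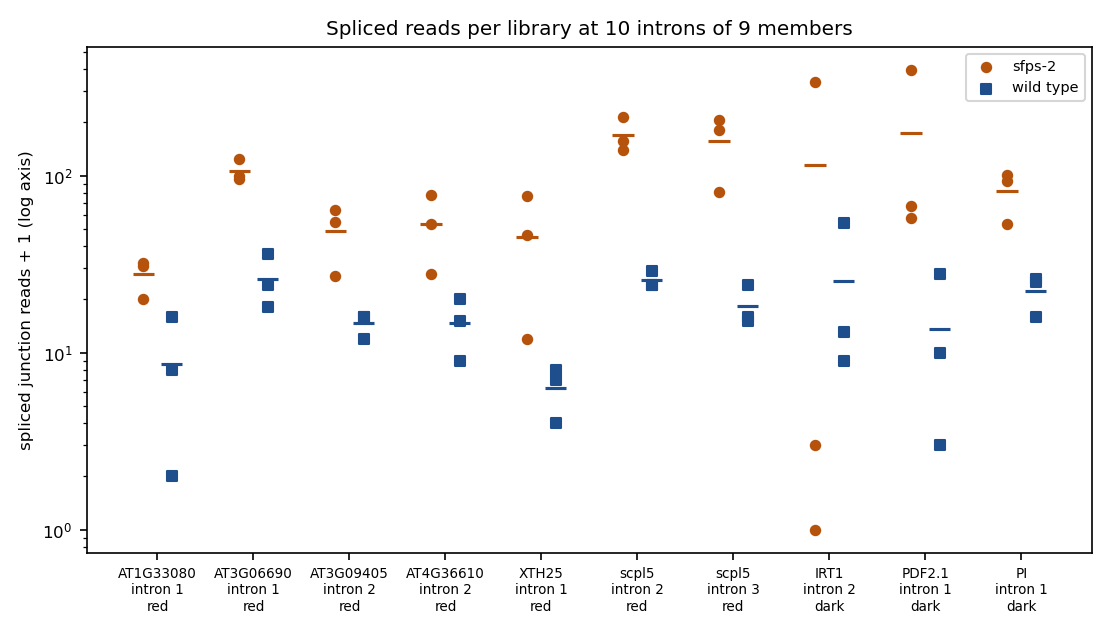
Spliced junction reads per library, with 1 added, on a log axis for the 10 introns of 9 members, with sfps-2 circles left of wild type squares and short lines at the means. The groups separate at 9 introns, and at IRT1 intron 2 a single sfps-2 library with 338 reads stands above all others.

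Several features that the selection did not use were then described. The 107 protein-coding members had a median of 3 exons, against 5 in the 19744 protein-coding genes tested in both comparisons, and 56.1% had 1 to 3 exons, against 39.0%. Their median gene length was 1614 bases, against 2370 bases. The small cysteine-rich genes had a median of 2 exons. By chromosome, 31 members lie on chromosome 1, 18 on chromosome 2, 26 on chromosome 3, 16 on chromosome 4 and 23 on chromosome 5, which is 0.484% to 0.643% of the tested genes of each. Within 1 Mb of SFPS there were 3 members (AT1G29560, AT1G29680 and AFH14) among 342 tested genes, 0.877%, against 0.558% over all nuclear tested genes. Next to another member were 10 members in 5 pairs, FAR4 and FAR5, GASA2 and GASA3, IRT1 and IRT2, PELPK1 and PELPK2, and AT3G12955 and SMP1. In 4 of the 5 pairs both genes belong to the same family and lie on the same strand.

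Short motifs were counted on both strands of the window of 250 bases before to 50 after the RefSeq start of 113 members, with 20348 tested genes and all 37885 genes beside them. The RY core CATGCA was in 26 member promoters (23.0%), against 8.83% of the tested genes and 10.4% of all genes. It was in 9 of the 15 seed maturation promoters and in 1 of the 15 promoters of suberin and endodermal barrier genes (suberin promoters below). ACGTG was in 41 member promoters (36.3%), against 28.0% of the tested genes and 24.6% of all genes, with 8 of 15 in the seed maturation and 5 of 15 in the suberin promoters. It includes every G-box CACGTG, which 8 members held (7.08%), against 8.93% of the tested genes. The W-box core TTGAC was in 76 member promoters (67.3%), against 51.1% of the tested genes and 49.5% of all genes, with 12 of 15 in the seed maturation and 11 of 15 in the suberin promoters.

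The other motifs were near or below the share of the tested genes except AuxRE. TGTCTC (AuxRE) was in 23 members, against 13.7% of the tested genes. TGACG (the as-1 core, which can overlap TTGAC) was in 21 (18.6%), against 23.7%. CCGAC (the DRE core) was in 13 (11.5%), against 16.3%, GAANNTTC (a heat shock element) was in 10 (8.85%), against 11.4%, and AAATATCT (the evening element) was in 7, against 5.70%. A match says only that the letters are present.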

How the data were processed

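The members and gene lists were chosen with earlier results of these data known, and the 10 kinds of genes, the suberin list and the genes named beyond the fixed rule were chosen after values were seen. That rule names SFPS, the 12 members with the largest smaller ratio, the 6 highest levels, the 4 largest rises and falls called with light, members with listed splicing events, members of lists, neighbours and the 3 genes on each side of the threshold.

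Per the submitters' processing notes, FastQC, TopHat2 and Cufflinks were used with TAIR10. The series text adds ASpli. Versions are not given in the sources used here. The authors' expression tables hold FPKM per group, over 3 libraries together and normalized within each table. Between the light and genotype tables the median ratio of the same group was 0.979 to 1.02. Each p-value and q-value of expression comes from the authors' Cuffdiff run, per the file headers. Log2 ratios were computed here from the FPKM, with no pseudocount, and levels are per length. For listed splicing events only, the deposited sheets give each library's junction reads as counts, and the fraction columns are the authors' shares over a group. Counts have counting error only in the upper limits, which take 3 reads where a group had 0. The sheets do not say whether reads were counted by strand, so overlapping genes are uncertain. All 12 libraries were mapped by their labels, with 0 unmapped columns.

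Limma 3.58.1 in R 4.3.3 was fitted to the log2 odds of retention (0.5 added to each read number) over the 956 listed events after red light and the 928 in the dark, with Benjamini-Hochberg adjustment. It was tested on simulated data. Scaling of spliced reads used 581 nuclear bins. Alternatives were another fold, floor, pseudocount, read filter, promoter window and a block for the replicate number, and each library left out. Sequences are RefSeq TAIR10.1: 1236 of 1237 intron bins of the files began with GT or GC and ended with AG there. Promoters start at RefSeq gene starts, which often differ from the files' starts. The results of 2 gene lists are not reported here.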

Additional observations from a re-analysis of the deposited data

How the results depend on the processing

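The number of members became 272 at 1.5 times, 52 at 3 times, 33 with a floor of 5 FPKM and 220 with no floor. Members called higher after red light numbered 11 in sfps-2 at 2 times, against 19, and 5 in wild type with at least 1 FPKM in both groups, against 20, since only 37 members were then tested. Members called lower numbered 4 in sfps-2 and 2 in wild type at 2 times, against 8 and 6. The median log2 light change in wild type was -0.13 with at least 1 FPKM in both groups, against -0.02. With the list at 10 points, 5 members had an event, against 9. In the 150 bases before the start, the share of member promoters was 15.04% for CATGCA, 24.8% for ACGTG, 1.77% for CACGTG, 49.6% for TTGAC, 11.5% for TGACG, 6.195% for CCGAC and 7.965% for TGTCTC. Among the tested genes these shares were 4.46%, 17.7%, 5.66%, 31.3%, 13.1%, 8.89% and 6.45% in the same order.

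Over all listed events, 791 of 956 after red light and 753 of 928 in the dark passed an adjusted p of 0.05 in limma. Of the members' 10 introns, 5 passed, a smaller share, and 3 of the 5 with at least 10 reads in every library did. Leaving out 1 library gave 4 to 7. For each library the log2 odds were taken as deviations from the mean of its group. Over the listed events, the correlation of these deviations between same-numbered libraries was between -0.08 and 0.00. It shows no pairing by number at these events. It cannot tell whether such libraries were grown or handled together. With the replicate block 6 passed, AT4G36610 being added at an adjusted p of 0.0440. The log2 odds of scpl5 intron 3 ran from -0.28, without wild type red light replicate 2, to 1.36, without wild type red light replicate 3. Those of AT4G36610 ran from 0.67 to 1.64, those of scpl5 intron 2 from 0.08 to 2.01, with an adjusted p of 0.0222 without wild type red light replicate 3, and those of XTH25 from -2.02, with an adjusted p of 0.0204 without the same library, to -0.41. IRT1 was at 3.58 ± 1.56 (SE) with all libraries, with an adjusted p of 0.0676 in limma. It reached 5.40 without sfps-2 dark replicate 2. Among the sfps-2 dark libraries then left, replicate 1 held 6 border and 2 spliced reads and replicate 3 held 0 of each. In both fits the odds of replicate 3 come only from the amount added to each read number. The fit without replicate 2 therefore cannot decide whether retention of IRT1 differed. With 1 added to each read count AT3G09405 was at 0.85, against 1.55, with an adjusted p of 0.0268. Leaving out libraries was added for the spliced reads after the data were seen: the ratio of IRT1 turned to 0.0483, and those of the other 9 introns stayed at or above 2.59. Their separation held for 9 introns with unscaled counts and for 9 by a ratio above 1.5 without any 1 library. The genes were chosen for higher levels in these same libraries, so these counts add no independent support. With no FPKM per library, no spread limits the ratios of the other 105 members.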
